A study of Mus musculus with 4 samples.

Results

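The ABC efflux transporters are ATP-driven pumps of the cell membrane that move drugs, conjugated metabolites, organic anions and lipids out of the cell. The genes examined were Abcc1, Abcc2, Abcc3, Abcc4, Abcb1a, Abcb1b, Abcg2 and Abca1, selected on their log2 signals over the 4 arrays of the study and taken with every probe that carries their name. They made up 8 of 21208 genes, and 15 of 41142 probes. Because those signals chose them, all values below are a description with no test. Total RNA of mouse kidney was hybridised to one-colour Agilent arrays, which read each gene as the fluorescence of a short probe. The first group was NLRC5-/- mice on C57BL/6, given ischemia of both kidneys for 30 min and then reperfusion (knockout injured). The others were C57BL/6 wild type mice with the same injury (wild type injured), NLRC5-/- mice with a sham operation (knockout sham) and C57BL/6 wild type mice with a sham operation (wild type sham). All mice were 8 weeks old, and 1 array stood for each group. NLRC5 is a regulator of MHC class I genes. Reperfusion is given as 48 h in the titles and the design and as 24 h in the descriptions. The design does not give the spread between animals. Bulk kidney RNA cannot tell fewer cells of a type from less RNA per cell.

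Each of these pumps binds its cargo in a pocket between membrane helices and uses ATP to turn the pocket outward. In the kidney the proximal tubule takes up organic ions from blood through SLC carriers on its basolateral side and passes them into urine through apical pumps. ABCC2 (MRP2), ABCC4 (MRP4), ABCG2 (BCRP) and P-glycoprotein, which mice encode in the pair Abcb1a and Abcb1b, lie on the apical side. ABCC1 (MRP1) and ABCC3 (MRP3) are basolateral in polarised epithelia and return conjugates toward blood, and ABCA1 hands cholesterol and phospholipid to apolipoprotein A-I. The oxidative stress factor NRF2 and the nuclear receptors CAR and PXR are known inducers of several MRP genes, and the sterol receptor LXR is a known inducer of Abca1.

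Values are log2 of the processed spot signal minus the 75th percentile of all non-control spots of the same array. The only Nlrc5 probe read -3.62 in knockout injured, -3.34 in wild type injured, -3.77 in knockout sham and -4.08 in wild type sham, well above background on each. It was thus not lower in knockout than in wild type sham kidneys. The labels do not give the deleted stretch of the gene, so whether the probe lies in it is unknown, and the genotype labels could not be checked by it. The arrays differed in other ways that bear on each comparison. That percentile was 362.2 in knockout injured, 181.7 in wild type injured, 465.4 in knockout sham and 456.2 in wild type sham, and the share of probes well above background ranged from 67.3% to 74.6%. Both knockout arrays were on 1 slide and both wild type arrays on another, so slide and genotype cannot be told apart, whereas each injury comparison lies within 1 slide. The knockout sham array carried a female pattern, with Xist at 5.20 and all 4 Y-chromosome genes of the list not well above background, and the other 3 arrays carried a male pattern. Sex and injury thus cannot be told apart in the knockout, nor can sex and genotype in the sham kidneys, while wild type injury and the comparison of injured kidneys do not use that array. The titles carry a further letter whose meaning the labels do not give, L for wild type injured and knockout sham and R for knockout injured and wild type sham. Every comparison between 2 groups made here, injury or genotype, sets an L array against an R array, and in the response difference the letter and the effect cannot be told apart at all. The 8 proximal tubule markers check the tissue and were well above background on every array, with a mean of 6.10 in knockout injured, 3.48 in wild type injured, 6.22 in knockout sham and 6.36 in wild type sham. Of the tubular injury markers, 6 of 7 were 2-fold higher after injury in the knockout and 6 of 7 in wild type, and 6 of 7 were lower in knockout than in wild type injured kidneys. The sham kidneys differed in them too. There 1 of 7 was 2-fold higher in knockout than in wild type (Lcn2 at 1.05) and 2 were lower (Havcr1 at -5.30 and Krt20 at -2.60). Havcr1, which encodes KIM-1, stood at 0.59 in knockout injured, 3.42 in wild type injured, -4.95 in knockout sham and 0.35 in wild type sham. The 4 adipocyte markers averaged -5.65 in knockout injured, -3.49 in wild type injured, -4.85 in knockout sham and 1.26 in wild type sham, the one array on which all 4 were well above background. Wild type injury, the genotype comparison of sham kidneys and the response difference use that array.

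By brightest probe Abcc3 differed most of the measured transporters in every comparison, and in opposite directions with injury in the genotypes. It was 5.45-fold lower after injury in the knockout, 6.91-fold higher after injury in wild type, 4.28-fold lower in knockout than in wild type after injury, and 8.78-fold higher in knockout than in wild type sham kidneys. Abcc2, the apical conjugate pump, was higher after injury in both genotypes, by under 2-fold, and lower in knockout than in wild type kidneys of both operations. Abca1 was lower after injury in wild type and higher in the knockout. Abcc4, Abcg2 and Abcb1b differed by less than 2-fold in all of these comparisons by their brightest probes.

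A gene was called here when its brightest probe differed by at least 2-fold, a log2 difference of 1, with no replicate behind the call. After injury in the knockout, 1 of the 7 transporters well above background on either array was 2-fold lower (Abcc3) and 0 were 2-fold higher, where 3.18% of all genes were lower and 4.43% higher (7.61% in all). After injury in wild type, 1 of 8 was higher (Abcc3) and 1 was lower (Abca1), where 14.4% of all genes were higher and 12.7% lower (27.1% in all). Between knockout and wild type injured kidneys, 1 of 7 was lower in the knockout (Abcc3) and 0 were higher, where 7.8% of all genes were lower and 8.67% higher (16.5% in all). Between knockout and wild type sham kidneys, 1 of 8 was higher in the knockout (Abcc3) and 1 was lower (Abcb1a, as a bound), where 3.93% of all genes were higher and 3.25% lower (7.18% in all). All genes split there into 669 higher and 554 lower in the knockout, and into 442 and 840 when arrays were scaled to their medians. The response difference is the injury difference of the knockout minus that of wild type. Of the 7 transporters above background on all 4 arrays, 1 stood 2-fold or more above 0 (Abca1) and 2 stood below it (Abcc1 and Abcc3), where 9.79% of all genes were above and 9.35% below (19.1% in all). The medians over the transporters were -0.01 for injury in the knockout, 0.19 for injury in wild type, -0.45 for genotype after injury, -0.49 for genotype in sham kidneys and 0.03 for the response difference, against medians of all genes of 0.02, 0.03, 0.01, 0.04 and -0.02. Counted by probe, 0 were higher and 2 lower of 14 after injury in the knockout, and 5 were higher and 2 lower of 15 after injury in wild type. Of 14 probes 0 were higher and 3 lower in knockout against wild type injured kidneys, and of 15 probes 2 were higher and 2 lower in sham kidneys. In the response difference 1 of 12 probes stood above 0 and 4 below it, at 2-fold. The shares above are of genes by brightest probe. No share over all probes was taken, and probes of the same gene are not independent readings. These values chose the genes, so nothing is read from the counts.

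**Figure D1:**
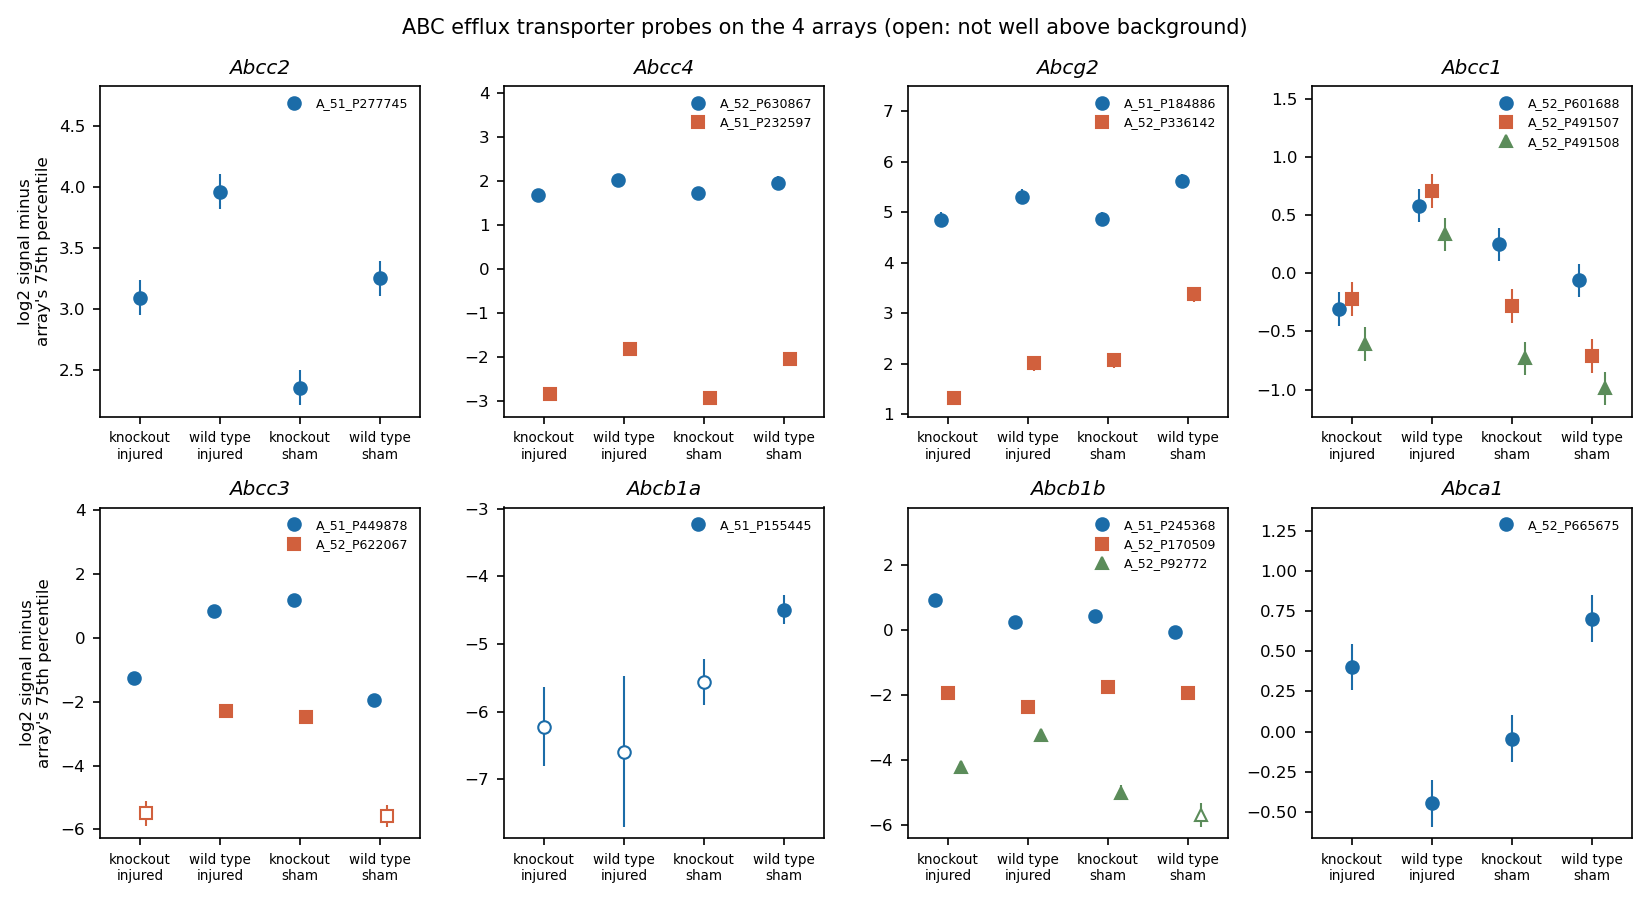
Level of each of the 15 probes on the 4 arrays, as log2 signal minus the 75th percentile of the array, with 1 panel per gene, its own vertical scale in each panel and bars for the technical error of the scanner software. Abcc3 is high in wild type injured and knockout sham and low in knockout injured and wild type sham by both probes, and open symbols are not well above background.

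Abcc2 encodes MRP2, the apical exporter of glutathione and glucuronide conjugates. Its only probe, A_51_P277745 (chr19:43912079-43912138, plus strand, mm9, as all probe positions here), read 3.095 in knockout injured, 3.96 in wild type injured, 2.36 in knockout sham and 3.25 in wild type sham. Wild type injured was highest and knockout sham lowest, and knockout injured and wild type sham lay 0.16 apart, within their technical error of 0.20. That error comes from the error model of the scanner software and leaves out differences between animals. Injured minus sham was 0.74 in the knockout and 0.71 in wild type, which leaves a response difference of 0.03 ± 0.29 (technical error). The knockout differed from wild type by -0.87 after injury and by -0.90 in sham kidneys. With median scaling the sham difference came to -1.05, past 2-fold. With normexp background correction on all spots, injury came to 0.27 in the knockout and 0.59 in wild type, the response difference to -0.32 and the genotype difference after injury to -1.23, past 2-fold. With normexp fitted without spots flagged for signal or background, injury came to 0.76 in the knockout and 0.58 in wild type.

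The promoter of Abcc2 is shown because NRF2, whose targets are described further on, is a known inducer of this gene. RefSeq promoters were matched by symbol for 6 of the transporters, all but Abcc1 and Abcc3, in 9 windows of 250 bases before to 50 bases after a start site. The Abcc2 window is chr19:43782058-43782357 on the plus strand of GRCm38.p6, with capitals marking the match to the core of the antioxidant response element that NRF2 binds, at -98 from the start site.
Abcc2 promoter: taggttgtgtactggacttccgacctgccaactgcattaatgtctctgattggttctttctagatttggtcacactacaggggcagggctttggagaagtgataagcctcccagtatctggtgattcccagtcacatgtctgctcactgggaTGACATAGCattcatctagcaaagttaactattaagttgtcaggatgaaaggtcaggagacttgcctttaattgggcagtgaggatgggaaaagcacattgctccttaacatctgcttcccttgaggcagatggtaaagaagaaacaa
The core was searched as TGACNNNGC on both strands and was found in 4 of the 9 windows (Abcc2, Abcb1a and both of Abcc4), against 12.4% of all 32851 windows in the table. The GC box GGGCGG was in 5 of the 9 windows, against 35.7% of all, and TATAAA in 3, against 13.6%, with both strands searched. A match of letters is not a bound site.

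Abcc4 encodes MRP4, an apical exporter of cyclic nucleotides, urate and organic anions. Probe A_52_P630867 (chr14:118882104-118882163, minus strand) read 1.69 in knockout injured, 2.02 in wild type injured, 1.73 in knockout sham and 1.96 in wild type sham. The second probe, A_51_P232597 (chr14:118883515-118883574, minus strand), read -2.86 in knockout injured, -1.81 in wild type injured, -2.95 in knockout sham and -2.06 in wild type sham. Both knockout arrays lay below both wild type arrays by each probe. The injury differences were between -0.04 and 0.09 in the knockout and between 0.06 and 0.24 in wild type, about the size of the technical errors of 0.20 to 0.22. The genotype difference depended on the probe: after injury the knockout differed from wild type by -0.33 with the first and -1.04 with the second, and in sham kidneys by -0.23 and -0.89.

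Abcg2 encodes BCRP, the apical pump for urate, sulfate conjugates and many drugs. Probe A_51_P184886 (chr6:58640579-58642261, plus strand) read 4.86 in knockout injured, 5.31 in wild type injured, 4.87 in knockout sham and 5.62 in wild type sham. Probe A_52_P336142 read 1.33 in knockout injured, 2.01 in wild type injured, 2.07 in knockout sham and 3.38 in wild type sham. Wild type sham was highest and knockout injured lowest by both, although by the first probe the knockout arrays lay 0.01 apart. The probes gave different sizes of difference. Injury in the knockout came to -0.01 by the first and -0.74 by the second, and injury in wild type to -0.31 and -1.37. Knockout minus wild type was -0.45 and -0.69 after injury, and -0.75 and -1.31 in sham kidneys. The second probe is shown because it is the one past 2-fold. It spans chr6:58628344-58633274 (plus strand, mm9), 4931 bases of genome for 60 bases of probe, so it crosses a splice junction, as does the first.
Abcg2 probe A_52_P336142: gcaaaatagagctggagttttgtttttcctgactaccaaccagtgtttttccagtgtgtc

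Abcc2, Abcc4 and Abcg2 read lower in knockout than in wild type by each of their 5 probes, both after injury and after sham operation. Abcb1b, also of an apical pump, read higher in both by its 2 brighter probes. Its dimmest probe read lower in the knockout after injury, at -0.996, so no direction is given for Abcb1b there. The sham difference of its second probe, 0.20, was within its technical error of 0.21. Of all genes above background on the 4 arrays, 26.3% were lower in the knockout in both operations and 29.7% were higher in both. The arrays share the slide of each genotype, so genotype and slide cannot be told apart in these values. The proximal tubule markers stood otherwise, as their median difference between knockout and wild type was 3.16 after injury, with 7 of 8 at least 2-fold higher, and -0.14 in sham kidneys, with 0 of 8 at 2-fold.

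Abcc1 encodes MRP1, the basolateral exporter of glutathione conjugates and leukotriene C4. Probe A_52_P601688 (chr16:14474551-14474610, plus strand) read -0.31 in knockout injured, 0.58 in wild type injured, 0.25 in knockout sham and -0.06 in wild type sham. Probe A_52_P491507 read -0.22 in knockout injured, 0.71 in wild type injured, -0.28 in knockout sham and -0.71 in wild type sham. Probe A_52_P491508 read -0.61 in knockout injured, 0.33 in wild type injured, -0.73 in knockout sham and -0.99 in wild type sham. Wild type injured was highest by all 3 probes. Injury in wild type came to 0.64 by the brightest probe and to 1.42 and 1.32 by the others, so 2 of the 3 probes passed 2-fold. Injury in the knockout came to -0.55 by the brightest probe and to 0.06 and 0.12 by the others, both within their technical error of 0.20. No direction is therefore given for Abcc1 with injury in the knockout. All 3 probes gave a lower response in the knockout, with response differences of -1.20, -1.36 and -1.20 and a technical error of 0.29 for each. Knockout minus wild type lay between -0.94 and -0.89 after injury and between 0.26 and 0.43 in sham kidneys. With normexp background correction on all spots the response difference of the brightest probe was -0.73, under 2-fold.

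The pair of probes that gave the same direction in the knockout are printed because they are not independent readings. They lie at chr16:14473598-14473657 and chr16:14473557-14473616 (plus strand, mm9) and share 19 bases, in capitals.
Abcc1 probe A_52_P491507: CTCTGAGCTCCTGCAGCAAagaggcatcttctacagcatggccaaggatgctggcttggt
Abcc1 probe A_52_P491508: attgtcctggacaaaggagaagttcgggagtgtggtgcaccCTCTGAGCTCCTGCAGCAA

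Abcc3 encodes MRP3, the basolateral exporter of bile salts and glucuronides, known in liver for its induction in cholestasis. Probe A_51_P449878 (chr11:94204671-94204730, minus strand) read -1.26 in knockout injured, 0.84 in wild type injured, 1.18 in knockout sham and -1.95 in wild type sham. These come from processed signals of 151 in knockout injured, 324 in wild type injured, 1056 in knockout sham and 118 in wild type sham. Wild type injured and knockout sham, the arrays with the letter L in their titles, were high, and the other pair, with the letter R, was low. The letter and this pattern cannot be told apart. Injury differed by -2.45 ± 0.20 in the knockout and by 2.79 ± 0.21 in wild type (technical errors), and the response difference was -5.23 ± 0.29. Knockout minus wild type was -2.10 after injury and 3.13 in sham kidneys. The injury difference of the knockout and the sham difference both use the array with the female pattern, and the part of sex in them was not tested. The wild type injury difference and the comparison of injured kidneys do not use it, but they too set an L array against an R array.

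A second Abcc3 probe, A_52_P622067 (chr11:94225685-94225744, minus strand, mm9), gave the same high and low arrays from another place in the gene, and is shown for that reason.
Abcc3 probe A_52_P622067: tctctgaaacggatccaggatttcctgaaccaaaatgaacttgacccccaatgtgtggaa
It read -5.49 in knockout injured, -2.29 in wild type injured, -2.49 in knockout sham and -5.57 in wild type sham, and on the knockout injured and wild type sham arrays it was not well above background. Its differences are therefore bounds. Injury went with at least 7.10-fold less in the knockout and at least 9.29-fold more in wild type. The knockout was at least 8.10-fold lower than wild type after injury and at least 8.13-fold higher in sham kidneys. Each bound sets the bright array against the detection floor of the dim one, the dimmest signal that still counted as well above background there, or the probe itself where that was brighter.

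**Figure D2:**
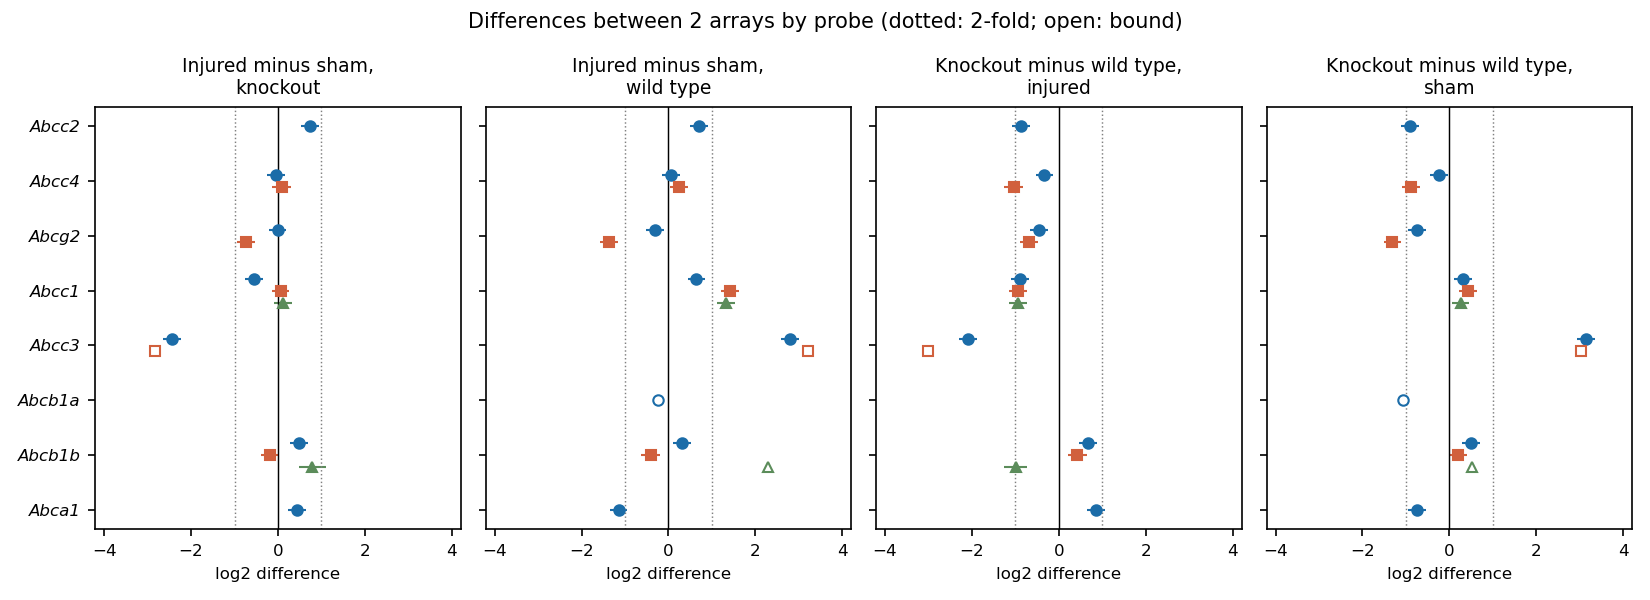
Log2 difference of each probe (symbols as in the plot of levels) between 2 arrays, injured minus sham in each genotype and knockout minus wild type in each operation, with bars for the technical error, open symbols for bounds and dotted lines at 2-fold. Abcc3 lies past 2-fold in all 4 panels, at -2.45, 2.79, -2.10 and 3.13 by its brightest probe, and Abcc2, Abcc4 and Abcg2 lie left of 0 in both genotype panels.

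Abcb1a and Abcb1b encode the mouse P-glycoproteins, close paralogs that lie near each other on chromosome 5 and export hydrophobic drugs and steroids. Whether a probe of one also reads the other was not tested. The Abcb1a probe, A_51_P155445 (chr5:8747979-8748038, plus strand), had processed signals of 4.86 in knockout injured, 1.89 in wild type injured, 9.87 in knockout sham and 20.3 in wild type sham, and was well above background only in wild type sham. Its level there was -4.49. Knockout sham lay at least 2.09-fold below that level, and wild type injured at least 1.19-fold below it. With normexp on all spots the sham difference came to -0.19, in the same direction but under 2-fold and smaller than the technical error of 0.40. The wild type injury difference came to 0.81, in the other direction, so its direction does not hold across background corrections. The gene is thus near the detection limit and gives no value for the comparisons in which both arrays lie below it.

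The brightest Abcb1b probe, A_51_P245368 (chr5:8865925-8865984, plus strand), read 0.93 in knockout injured, 0.26 in wild type injured, 0.44 in knockout sham and -0.05 in wild type sham. Probe A_52_P170509 (chr5:8861441-8861500) read -1.93 in knockout injured, -2.35 in wild type injured, -1.74 in knockout sham and -1.93 in wild type sham. Probe A_52_P92772 (chr5:8827445-8827707, across a splice junction) read -4.205 in knockout injured, -3.21 in wild type injured, -4.99 in knockout sham and -5.68 in wild type sham. The probes disagreed, and in wild type sham the last was not well above background. Injury came to 0.49, -0.19 and 0.79 in the knockout by the 3 probes. In wild type it came to 0.31 and -0.41 by the brighter probes and to at least 4.93-fold more by the last. Knockout minus wild type after injury was 0.67, 0.42 and -0.996. No direction is therefore given for the gene with injury in either genotype, or between genotypes after injury. In sham kidneys the knockout read higher by each probe, at 0.50, 0.20 (within its technical error of 0.21) and at least 1.43-fold.

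Abca1 encodes the cholesterol and phospholipid exporter that loads apolipoprotein A-I. Its only probe, A_52_P665675 (chr4:53043944-53044003, minus strand), read 0.40 in knockout injured, -0.45 in wild type injured, -0.04 in knockout sham and 0.70 in wild type sham. Wild type held both the highest and the lowest array, and the knockout arrays lay between them. Injury differed by 0.44 in the knockout and by -1.15 in wild type (technical error 0.20 each), and the response difference was 1.59 ± 0.29. Knockout minus wild type was 0.85 after injury and -0.75 in sham kidneys. Macrophages are a known site of this gene, and the 6 macrophage markers averaged -0.32 in knockout injured, -2.10 in wild type injured, -0.63 in knockout sham and -0.85 in wild type sham. Of these markers, 1 of 6 was 2-fold higher after injury in the knockout and 0 were lower, against 1 higher and 4 lower in wild type. Of all genes, 4.43% were higher and 3.18% lower in the knockout, and 14.4% higher and 12.7% lower in wild type. The part of macrophages in the Abca1 values was not tested.

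Over all 15 probes, 15 of the 45 steps between neighbouring arrays in the order of levels were within their technical error. For Abcc4 the brightest probe left the wild type arrays 0.06 apart and the knockout arrays 0.04 apart. For the second Abcc3 probe the high arrays lay 0.19 apart and the low arrays 0.08 apart. The range over the 4 arrays was 3.13 for Abcc3, 1.61 for Abcc2, 1.15 for Abca1, 0.98 for Abcb1b, 0.89 for Abcc1, 0.76 for Abcg2 and 0.33 for Abcc4 by the brightest probes.

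The genes with the most similar pattern were found by the root mean square gap between centred log2 values over the 4 arrays, among 14989 other genes above background on all of them. Abcc3 had the most distant neighbours, Klk1b27, a kallikrein family gene, at 0.23 and Homer2 at 0.51. The values were centred but not scaled, so the wide range of Abcc3 can by itself give it larger gaps. The nearest to Abca1 was Zfp101 at 0.010, to Abcc4 Fscn1 and Sco1 at 0.012 and 0.013, and to Abcb1b Sparc and Clk4 at 0.017 and 0.023. Abcg2 lay nearest Zfp277 and Mdm2 at 0.028 and 0.035, Abcc1 nearest Ak8 and Scin at 0.030 and 0.040, and Abcc2 nearest Tnc and Slco4a1 at 0.064 and 0.066. With 4 arrays many genes share a pattern, so a small gap is only a description.

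Of the 45 other ABC family genes, 3 of the 36 that could be counted differed 2-fold after injury in the knockout (8.33%, against 7.61% of all genes) and 11 of 35 after injury in wild type (31.4%, against 27.1%). Between knockout and wild type, 8 of 33 differed after injury (24.2%, against 16.5%) and 2 of 37 in sham kidneys (5.41%, against 7.18%). In the response difference 7 of 27 stood at 2-fold (25.9%, against 19.1%), 5 above 0 and 2 below. Abca13 stood at -1.15 in the knockout and -4.84 in wild type after injury, and the potassium channel subunit Abcc9 at 1.20 in the knockout and -3.14 in wild type. The sterol exporter Abcg1 stood at -0.72 in the knockout and -2.87 in wild type, the channel subunit Abcc8 at 0.32 in the knockout and 2.10 in wild type, and the chloride channel Cftr at 0.08 in the knockout and 1.44 in wild type. Of these 5 genes, named for their large differences, Abcc9 was the one on opposite sides of 0. Outside them some genes of the family were so and others not, with Abcd3 at -0.51 in the knockout and 0.24 in wild type. Among the efflux transporters Abcc1, Abcc3 and Abca1 were so by their brightest probes, each difference being larger than its technical error. Abcc4 was so too, at -0.04 in the knockout and 0.06 in wild type, but within its technical error of 0.20. The share of all genes on opposite sides of 0 was not taken, so nothing is read from these signs. The others at the ends of the injury differences were Abcc6 at 0.65, Abcb4, of the phospholipid exporter of bile, at 0.45, Abca5 at -0.997 and Abca16 at least 2.44-fold lower in the knockout, and Abca6 at 1.08 in wild type. In knockout against wild type injured kidneys the ends were Abca13 at 3.96, Abcc9 at 2.72 and Abca9 at least 6.25-fold higher, and Cftr at -1.70, the peroxisomal fatty acid transporter Abcd3 at -1.04 and Abcc8 at -0.94. In sham kidneys they were Abca16 at least 2.79-fold higher, Abcc8 at 0.84 and Tap2, a subunit of the MHC class I peptide transporter, at 0.77, and Abcc9 at -1.62, Abca15 at least 1.997-fold lower and the lung surfactant lipid transporter Abca3 at -0.71. The -5.23 of Abcc3 in the response difference lay beyond the ends of the other ABC genes, which were Abcc9, Abca13 and Abcg1 at 4.34, 3.70 and 2.15 and Abcc8, Cftr and Abca6 at -1.79, -1.36 and -0.94.

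**Figure D3:**
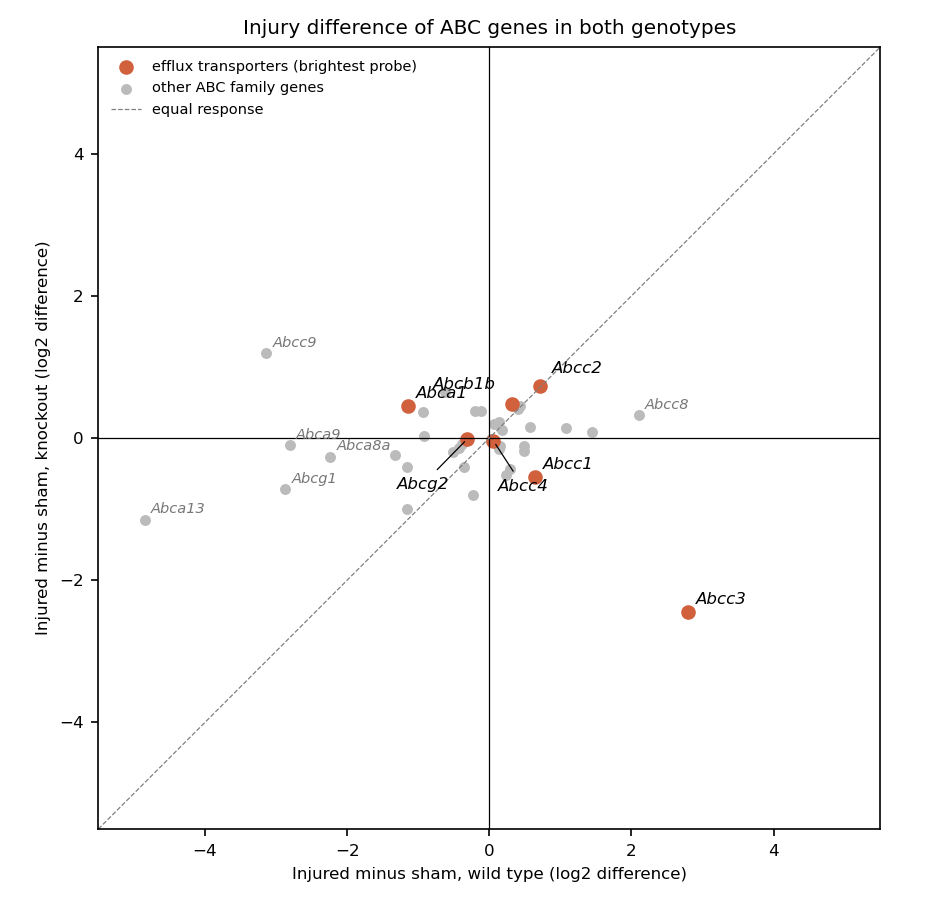
Injured minus sham log2 difference in the knockout (vertical) against wild type (horizontal) for the 7 efflux transporters with a value in both and for the other ABC genes, some of which are bounds, with a dashed line for equal responses. Abcc3 lies at 2.79 in wild type and -2.45 in the knockout, Abcc2 lies on the line, and Abca13, Abcc9 and Abcg1 lie far to the left.

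The regulators and partners of the transporters were read from lists drawn up with earlier results of these data known. Beside their counts, 4.43% of all genes were 2-fold higher and 3.18% lower after injury in the knockout. In wild type 14.4% of all genes were higher and 12.7% lower, and between injured kidneys 7.8% were lower in the knockout. Of NRF2 and its targets in glutathione synthesis and oxidative defence, 1 of 11 was 2-fold higher and 1 lower after injury in the knockout, against 8 higher and 0 lower in wild type, and 8 of 11 were lower in knockout than in wild type injured kidneys (median -1.83). The quinone reductase Nqo1 stood at 0.24 in the knockout and 2.80 in wild type, and the heme oxygenase Hmox1 at 1.03 in the knockout and 3.04 in wild type. Of the genes whose promoter windows hold the NRF2 core letters, Abcc2 and Abcc4 were under 2-fold with injury in both genotypes. The other, Abcb1a, was near the detection limit. Abcc1, another known NRF2 target, stood at 0.64 in wild type injury by its brightest probe, and its 2 overlapping probes were past 2-fold. Abcc3 stood at -2.45 in the knockout and 2.79 in wild type. The part of NRF2 in the transporters' values was not tested. Of the 9 xenobiotic regulators, 0 differed 2-fold after injury in the knockout, against 1 higher and 2 lower in wild type. The one higher was Nr1i3, which encodes CAR, at 0.96 in knockout injured, 3.28 in wild type injured, 0.77 in knockout sham and -0.68 in wild type sham. Abcc3 was also high in wild type injured and low in wild type sham. The knockout arrays lay 2.45 apart for Abcc3 and 0.19 apart for Nr1i3. The part of CAR in the Abcc3 values was not tested.

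Of LXR and its targets, 2 of 8 were 2-fold lower after injury in the knockout (3.18% of all genes) and 4 of 8 in wild type (12.7% of all genes). Their medians were -0.55 in the knockout and -1.06 in wild type. Abca1, at 0.44 in the knockout and -1.15 in wild type, shared the sign of those medians in wild type alone. The part of LXR in the Abca1 values was not tested.

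The organic ion carriers of the SLC families work beside the pumps and include basolateral uptake carriers as well as apical exporters and urate carriers. After injury in the knockout 1 of 13 was 2-fold higher and 1 was lower (median -0.14), and in wild type 0 were higher and 8 were lower (median -1.57), with the basolateral organic anion transporter Slc22a8 at -0.95 in the knockout and -2.91 in wild type. The proximal tubule markers were 2-fold lower in 0 of 8 after injury in the knockout and in 8 of 8 in wild type, with medians of -0.01 in the knockout and -3.02 in wild type. Beside those marker medians Abcc2, Abcc4 and Abcg2 stood at 0.74, -0.04 and -0.01 in the knockout and at 0.71, 0.06 and -0.31 in wild type by their brightest probes. The second probes stood at 0.09 (Abcc4) and -0.74 (Abcg2) in the knockout and at 0.24 (Abcc4) and -1.37 (Abcg2) in wild type. Of the apical scaffold genes that hold such pumps in the membrane, 0 of 6 were 2-fold lower in the knockout and 3 of 6 in wild type. Of the glutathione conjugation genes, which make substrates of the MRP pumps, 0 were higher and 1 lower of 10 in the knockout, against 2 higher and 2 lower in wild type. These list counts stand beside 4.43% of all genes higher and 3.18% lower in the knockout, and 14.4% higher and 12.7% lower in wild type.

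**Figure D4:**
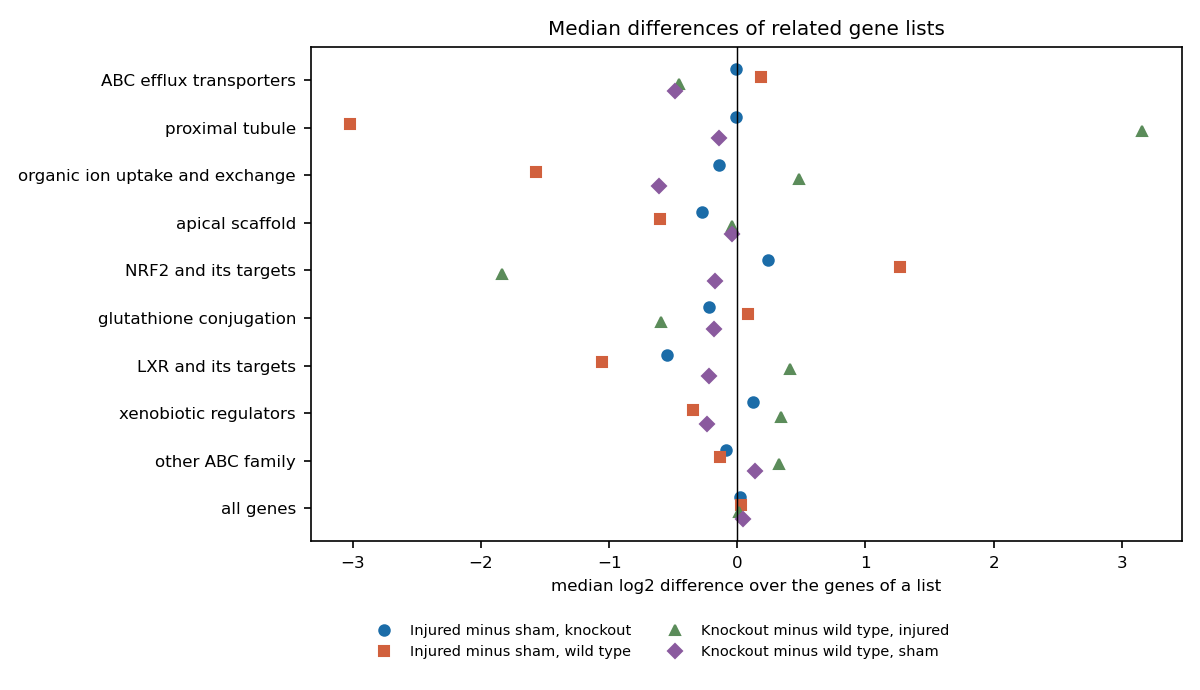
Median log2 difference over the genes of each list, for injured minus sham in knockout and in wild type and for knockout minus wild type in injured and in sham kidneys, with the efflux transporters at the top and all genes at the bottom. The proximal tubule list stands at -3.02 and the NRF2 list at 1.27 in wild type injury, against 0.19 for the efflux transporters.

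Markers of other cells differed beside these values. Endothelial cells carry P-glycoprotein in some vessels. Their 6 markers had a median injury difference of -0.41 in the knockout and -1.54 in wild type. The Abcb1b probes disagreed, at 0.49, -0.19 and 0.79 with injury in the knockout. In wild type they stood at 0.31, -0.41 and at least 4.93-fold more. Abcb1a was near the detection limit. Medians in knockout and wild type were -1.01 and -0.999 for the thick limb and -0.89 and -1.07 for the collecting duct. They were -0.93 and -3.83 for urothelium and -5.90 and -1.71 for erythroid cells. For neutrophils they were -1.10 and 1.38, over 3 markers in each. Of these Csf3r was counted in the knockout alone and Cxcr2 in wild type alone, both as bounds. The adipocyte median was -0.17 over the 2 markers counted in the knockout and -4.34 over the 4 in wild type. Of the 3 lymphocyte markers above background 0 reached 2-fold. The part of any of these cells in the transporters' values was not tested.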

How the data were processed

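RNA of 4 mouse kidneys, 1 per group, was read on one-colour arrays, so no value has a replicate and no p-value is given. The authors deposited scanner files whose spot intensity had been background-subtracted and detrended by Feature Extraction. Its version is 10.7.3.1 in the file headers but 9.1 in the submitters' processing notes. Probe coordinates are mm9, per the file headers. The authors also deposited a table of log2 values of the same arrays, and how they were normalized is not given in the sources used here. Column medians were 5.92, 5.91, 5.92 and 5.93 in knockout injured, wild type injured, knockout sham and wild type sham, and the lowest rank correlation with the scanner values was 0.99998. It served as an alternative.

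Of 45018 spots, 43379 were not controls. Spots with an outlier flag were dropped and spots of a probe averaged. The 75th percentile of the array was subtracted from each log2 intensity, and the brightest probe stood for a gene in counts. Genes were counted at 2-fold where a probe was well above background on either array, or on all 4 for the response difference, and a probe not above background gave a bound. The number of arrays limits the precision. Spots of repeated probes gave an SD of 0.13 to 0.17 for a difference between arrays, which is technical only. The transporters and all gene lists were chosen with earlier results of these data known. All probes of the 8 transporters are named, with the 3 largest other ABC genes each way per comparison, up to 3 members of each other list and the 2 nearest genes. The mm9 exon annotation was not used here, so probes are given by position. Promoters are from RefSeq (GRCm38.p6). Python 3.11.15 and limma 3.58.1 in R 4.3.3 (normexp, offset 50) were used. The counting was tested on simulated data. Alternatives changed the background correction, scaling, probe choice, filter, flagged spots and bounds.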

Additional observations from a re-analysis of the deposited data

Results flagged for a closer look

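By their brightest probes Abcc1, Abcc3 and Abca1 had injury differences of opposite direction in the genotypes, each larger than its technical error. The share of all genes that meet this rule was not taken, so nothing is read from how many transporters met it. Those of Abcc4, at -0.04 in the knockout and 0.06 in wild type, were also opposite but within their technical error of 0.20. With 1 array per group the difference between the responses was not tested. Abcc3 had a response difference of -5.23, from -2.45 in the knockout and 2.79 in wild type. Abca1 had a response difference of 1.59, from 0.44 in the knockout and -1.15 in wild type. Abcc1 had a response difference of -1.20, from -0.55 in the knockout and 0.64 in wild type, and its other probes stood near 0 in the knockout, at 0.06 and 0.12. Each knockout difference and each response difference uses the knockout sham array, which carried the female pattern. Each injury difference also sets an L array against an R array by the letter in the titles, with L injured in wild type and L sham in the knockout, so the letter and the response differences cannot be told apart.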

How the results depend on the processing

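No paired analysis was possible because each group held 1 array and the labels give no replicate numbers. Slide as a block could not be run for the same reason. Under 11 alternatives, 2 of them chosen after seeing the data, 339 of 405 transporter differences moved by less than their technical error, 66 moved by more, and 0 of those past 2-fold turned direction. Of 110 counts, 94 stayed within 1.5 times.

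Normexp on all spots gave 5609 genes at 2-fold for injury in the knockout (as reported, 1301), 1440 for genotype after injury (as reported, 2765) and 517 for genotype in sham kidneys (as reported, 1223). It called 2 transporters after injury between genotypes in place of 1, and 1 in sham kidneys in place of 2. Fitted without flagged spots these were 5408, 1328, 512, 2 and 1. Fitted also without spots flagged for local background, added later, the gene counts were 569, 1449 and 476, with 1755 for the response difference (as reported, 2868) and 1 transporter in sham kidneys. One spot of the knockout injured array had a mean minus background of -11068.73, and the fitted background mean was -225.2 on all spots, -179.96 without that spot and 0 without all 958 spots flagged for signal or background. The split of injury calls in the knockout was 757 higher and 544 lower, and 5009 and 600 with normexp on all spots. Normexp on all spots moved the median of all genes to 0.23 for injury in the knockout and 0.25 in wild type. Requiring all 4 arrays above background left 1 transporter in sham kidneys, since Abcb1a was not counted. With each probe's own signal in place of a bound, the sham split was 945 higher and 628 lower, and with quantile normalization 501 and 644.

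Abcc3 ranged over all settings from -2.64 to -1.51 for injury in the knockout and from 2.30 to 3.002 in wild type. Abcb1a came to -0.19 in sham kidneys with normexp on all spots (as reported, at least 2.09-fold lower), -0.21 and -0.18 with the other normexp fits, and to between 0.79 and 0.81 for injury in wild type with the 3 normexp fits. The response difference of Abcc2 was -0.32 and -0.30 with the planned normexp fits (as reported, 0.03). The mean over probes gave Abcb1b 0.03 for genotype after injury (as reported, 0.67) and Abcc1 1.13 for injury in wild type (as reported, 0.64). Signal over background limits Abcb1a and the second Abcc3 probe. The cause of the other shifts was not tested.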

Other observations

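Tap1 and Tap2 are the ABC family genes that load peptides for MHC class I, the gene set for which NLRC5 is known as a regulator. Tap2 read -1.71 in knockout injured, -2.19 in wild type injured, -1.56 in knockout sham and -2.33 in wild type sham. Knockout minus wild type was 0.48 after injury and 0.77 in sham kidneys. Tap1, named after its values were seen, read -4.51 in knockout injured, -4.31 in wild type injured, -4.33 in knockout sham and -4.80 in wild type sham, with knockout minus wild type at -0.20 after injury and 0.46 in sham kidneys. Neither reached 2-fold, and neither was lower in knockout than in wild type sham kidneys.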
